A study of Mus musculus with 4 samples.

Results

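CDR3s with an extra cysteine were chosen from the TCRα and TCRβ clone tables of splenic CD4 T cells by sequence alone. A clone was a member when its CDR3 was in frame, held no stop codon and had a cysteine at any position from 4 to the third from the end. With this rule neither the conserved first cysteine nor any other cysteine before position 4 or after the third from the end counted. This gave 748 members of 522418 in-frame clones, which lie among 571919 clones in all. TCRα contributed 407 members of 157998 in-frame clones and TCRβ 341 of 364420. Each member held exactly 1 cysteine in this stretch, and 11 of the 748 had a further one outside it.

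Each genotype, WT and Tet2/3 DKO, had 2 libraries, numbered as biological replicates 1 and 2. The study used male and female mice, aged 25 days on average. Tet2/3 DKO mice lack Tet2 in the germline, and their floxed Tet3 is deleted by CD4-Cre from the double positive thymocyte stage on. TCRβ rearrangement therefore comes before the loss of Tet3. The enzymes TET2 and TET3 oxidise 5-methylcytosine. Live spleen cells that were positive for CD4 and TCRβ and negative for CD25 and for the αGalCer-loaded CD1d tetramer were sorted, which removes iNKT cells. The libraries were made from total RNA by TCR SMART-seq, a 5' RACE method that reads whole variable regions of TCR transcripts. The tables hold TCR transcripts only, so that other lineage markers could not be checked. Between 149313 and 253251 in-frame TCRα reads and between 352203 and 552002 in-frame TCRβ reads were assigned to clones per library. The reads carry no molecular identifiers, and all confidence intervals given are 95% Wilson intervals that cover counting error only. The smallest p-value that an exact permutation test of 2 against 2 libraries allows is 0.333.

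The CDR3 is the loop of a TCR chain that is formed where the V segment joins the J segment, with a D segment between them in TCRβ, and it makes most of the contact with the presented peptide. Terminal transferase adds untemplated bases at the joints, which are called inserted bases here. A CDR3 starts with a conserved cysteine that pairs with another cysteine inside the V domain, and it usually ends with a phenylalanine or tryptophan. A further cysteine in the loop carries a free thiol. Such receptors are known in mice for strong reactivity to self during thymic selection, and thymocytes that carry them are often deleted or diverted from the conventional CD4 lineage.

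The most abundant members of each chain show what these CDR3s look like. Capitals mark the codon of the extra cysteine, and the sequences run 5' to 3' from the conserved first cysteine codon on the sense strand of the transcript. The leading TCRα member of each library, with its V and J segment and protein sequence, was as follows.
WT replicate 1, TRAV4D-4 and TRAJ16, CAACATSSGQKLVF: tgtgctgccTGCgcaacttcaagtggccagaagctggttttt
WT replicate 2, TRAV8-1 and TRAJ38, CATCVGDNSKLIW: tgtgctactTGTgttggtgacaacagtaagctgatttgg
Tet2/3 DKO replicate 1, TRAV11N and TRAJ56: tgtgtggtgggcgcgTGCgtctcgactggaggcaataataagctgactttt
Tet2/3 DKO replicate 2, TRAV13-1 and TRAJ42, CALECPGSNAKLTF: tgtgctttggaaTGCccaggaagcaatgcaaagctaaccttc

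These TCRα clones held 18, 27, 12 and 31 reads in that order, which were 7.32%, 7.42%, 4.38% and 7.52% of the extra-cysteine TCRα reads of their library. No TCRα member was larger than the 31-read clone. The leading TCRβ member of each library is shown in the same way.
WT replicate 1, TRBV13-1 and TRBJ2-5, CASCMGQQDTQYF: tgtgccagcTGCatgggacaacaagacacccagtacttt
WT replicate 2, TRBV20 and TRBJ2-2, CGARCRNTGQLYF: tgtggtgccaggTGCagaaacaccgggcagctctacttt
Tet2/3 DKO replicate 1, TRBV5 and TRBJ2-5: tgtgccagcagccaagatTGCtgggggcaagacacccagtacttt
Tet2/3 DKO replicate 2, TRBV12-2 and TRBJ2-4, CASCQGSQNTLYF: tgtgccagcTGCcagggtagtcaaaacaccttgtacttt

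The TCRβ clones held 13, 21, 14 and 16 reads in that order. Of these 8 leading clones 4 had the extra cysteine at position 4 and 2 at position 5, near the V end of the loop.

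Other members that recur below are of a pair of kinds. In the first group the cysteine comes just before the NNNNAPRF end of TRAJ43, and the second uses TRBV22, whose own sequence holds a cysteine codon. Examples are shown with the library in which they were found.
WT replicate 1, TRAV4-3 and TRAJ43, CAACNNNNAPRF: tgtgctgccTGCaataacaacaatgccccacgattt
Tet2/3 DKO replicate 2, TRAV7-5 and TRAJ43, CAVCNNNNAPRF: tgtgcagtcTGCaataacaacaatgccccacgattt
WT replicate 2, TRBV22 and TRBJ1-1, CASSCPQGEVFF: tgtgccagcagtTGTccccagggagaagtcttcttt
Tet2/3 DKO replicate 2, TRBV22 and TRBJ1-1, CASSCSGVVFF: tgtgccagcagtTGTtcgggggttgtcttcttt

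An extra cysteine was rare in both chains and was found in a larger share of TCRα clones than of TCRβ clones in each library. In TCRα, members made up 0.252% (82 of 32529; interval 0.203% to 0.313%) and 0.272% (111 of 40753; 0.226% to 0.328%) of in-frame clones in WT replicates 1 and 2. In Tet2/3 DKO replicates 1 and 2 they made up 0.235% (93 of 39503; 0.192% to 0.288%) and 0.268% (121 of 45213; 0.224% to 0.320%). The genotypes overlapped, and the means differed by -0.0107 percentage points (exact two-sided permutation test, p = 0.667, n = 2 and 2). In TCRβ the shares were 0.0818% (63 of 76996; 0.0640% to 0.105%) and 0.100% (96 of 95805; 0.0821% to 0.122%) in WT. In Tet2/3 DKO they were 0.0887% (82 of 92486; 0.0714% to 0.110%) and 0.101% (100 of 99133; 0.0830% to 0.123%). These groups overlapped too, with a difference of 0.00376 percentage points (exact permutation p = 0.667). Some members share V, J and protein sequence within a library, and the intervals count each as a separate clone. By V, J and protein sequence the TCRα members were 77 and 100 distinct CDR3s in WT and 82 and 103 in Tet2/3 DKO. The TCRβ members were 61 and 88 distinct CDR3s in WT and 75 and 90 in Tet2/3 DKO.

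By reads, members took up less of the repertoire than by clones. They held 0.165% and 0.193% of in-frame TCRα reads in WT against 0.162% and 0.163% in Tet2/3 DKO. Both Tet2/3 DKO values lay below both WT values, but the counting intervals of WT replicate 1 (0.145% to 0.187%) and of the Tet2/3 DKO libraries (0.144% to 0.183% and 0.148% to 0.179%) overlapped. The means differed by -0.0167 percentage points (exact permutation p = 0.333), and by -0.00234 without WT replicate 2 and -0.0311 without WT replicate 1. For TCRβ, WT libraries had 0.0429% and 0.0792% of reads in members, and each of the Tet2/3 DKO libraries had 0.0551%, so that the WT libraries lay on either side of the Tet2/3 DKO libraries. Without WT replicate 2 the TCRβ difference turned from -0.00592 to 0.0122 percentage points.

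**Figure D1:**
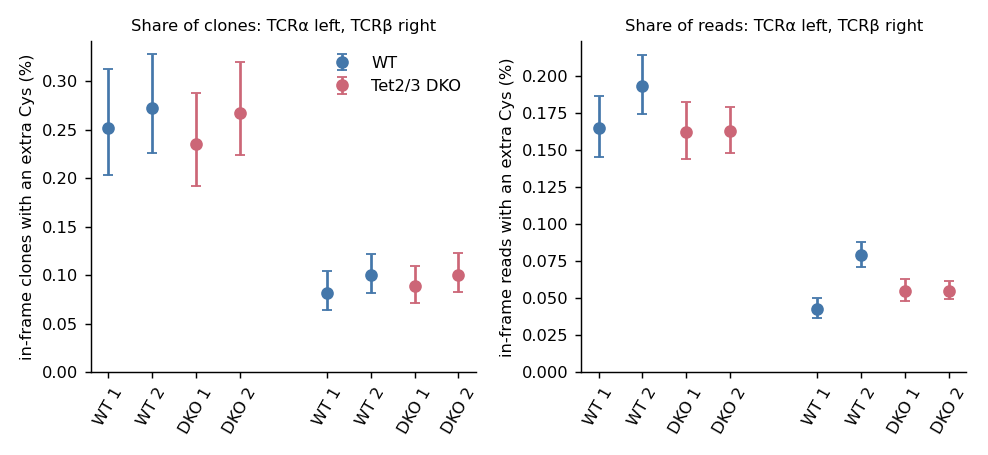
Share of in-frame clones (left) and in-frame reads (right), in percent, that hold an extra cysteine, for each library and chain, with 95% Wilson intervals for counting error. TCRα lies between 0.235% and 0.272% of clones and TCRβ between 0.0818% and 0.101%, and the intervals of WT and Tet2/3 DKO overlap for clones.

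Cysteine was the rarest of the 20 residues in this stretch of the CDR3 in both chains. The next rarest in TCRα was histidine, found in 3.07% of in-frame clones, and in TCRβ methionine, found in 0.910%. To ask how far this follows from the joining itself, cysteine codons were counted among junctional codons, meaning codons of the same stretch with at least 1 base between the V part and the J part (inserted or D). In-frame clones were set against nonproductive clones of the same library, which are out of frame or hold a stop codon and are not selected as protein. Nonproductive sequences were read in the frame of the V segment.

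Junctional cysteine codons were fewer in in-frame than in nonproductive clones in each of the 4 libraries and in both chains. In TCRβ, WT replicate 1 had 0.190 cysteine codons per 1000 junctional codons in frame (52 codons) and 2.31 in nonproductive clones (28 codons). WT replicate 2 had 0.201 (69 codons) and 2.68 (37 codons). The Tet2/3 DKO replicates had 0.177 (58 codons) and 1.57 (22 codons), and 0.213 (74 codons) and 1.36 (20 codons). The in-frame rate was thus 12.2-fold and 13.3-fold lower in WT against 8.86-fold and 6.36-fold lower in Tet2/3 DKO.

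The mean log2 ratio of the TCRβ rates was -3.29 ± 0.48 (SD, n = 4), with the same sign in 4 of 4 libraries (exact sign-flip permutation test, p = 0.125, the smallest that 4 libraries allow). The ratio was less negative in Tet2/3 DKO than in WT, by 0.76 on the log2 scale, without overlap (exact permutation p = 0.333). The in-frame rates of the genotypes overlapped, whereas the nonproductive rates, which rest on 20 to 37 codons per library, did not.

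For TCRα the gap was smaller. The rates per 1000 junctional codons were 1.68 in frame (60 codons) and 4.65 in nonproductive clones (29 codons) in WT replicate 1, and 1.64 (74 codons) and 3.84 (28 codons) in WT replicate 2. In Tet2/3 DKO they were 1.49 (66 codons) and 4.85 (36 codons), and 1.67 (84 codons) and 3.13 (26 codons). The mean log2 ratio was -1.33 ± 0.34 (SD, n = 4; exact sign-flip permutation p = 0.125), and the genotypes overlapped.

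In out-of-frame clones, which make up most nonproductive clones, a codon that takes in J bases is read out of the J frame, which changes the residues such codons can give. With codons made wholly of junctional bases the TCRβ log2 ratio was -3.55 and kept its sign in each library, and the genotypes lay closer, at -3.61 and -3.94 in WT against -3.57 and -3.11 in Tet2/3 DKO. For such codons the TCRα ratio was -1.10 and turned to 0.39 in Tet2/3 DKO replicate 2, where it rested on 5 nonproductive codons.

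**Figure D2:**
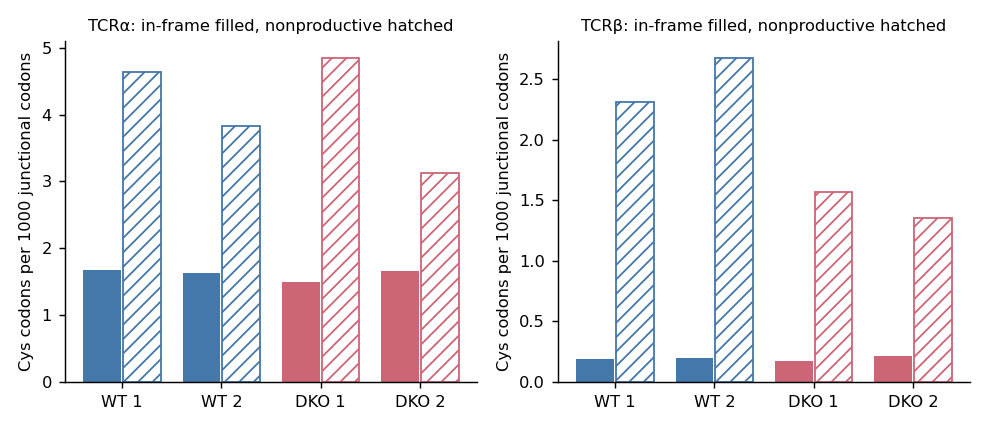
Cysteine codons per 1000 junctional codons in in-frame clones (filled) and nonproductive clones (hatched) of each library, TCRα on the left and TCRβ on the right on separate scales. The in-frame bar is the lower one in each library, at 1.49 to 1.68 for TCRα and 0.177 to 0.213 for TCRβ.

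Set beside the other residues, cysteine had the lowest ratio of in-frame to nonproductive rate in both chains. In TCRβ the residue next to it was isoleucine, with a mean log2 ratio of -0.44, and the highest was asparagine, at 0.45. In TCRα the next was glutamine, at -1.05, and its range over the libraries, from -1.25 to -0.90, overlapped that of cysteine, from -1.70 to -0.91. Cysteine therefore stood apart from the 19 other residues over the 4 libraries in TCRβ and not in TCRα.

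**Figure D3:**
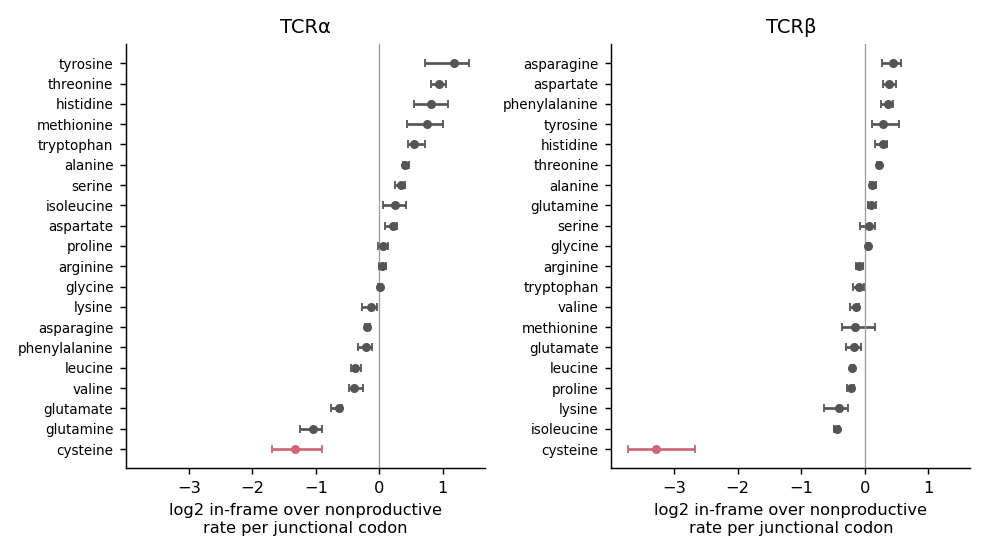
Mean log2 ratio of the rate per junctional codon in in-frame over nonproductive clones for each of the 20 residues, with bars from the lowest to the highest of the 4 libraries. Cysteine (red) is lowest in both chains, at -1.33 in TCRα and -3.29 in TCRβ.

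The extra cysteine sat at different places in TCRα and TCRβ. In TCRα it was placed at position 4 in 248 of 407 members (60.9%) and 93.1% of the cysteines lay before the centre of the loop. In TCRβ position 4 held 88 of 341 (25.8%), and the median position was 7. A cysteine within 2 residues of the middle of the CDR3, the part that usually faces the peptide, was found in 30.7% of TCRα and 54.0% of TCRβ members. Per 10000 in-frame clones that have the position, TCRα had 15.7 cysteines at position 4, 3.86 at position 5 and 0.763 at position 8. TCRβ had 2.41 at position 4, 0.522 at position 6 and 1.40 at position 8, so that its profile had a second rise in the middle of the loop.

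**Figure D4:**
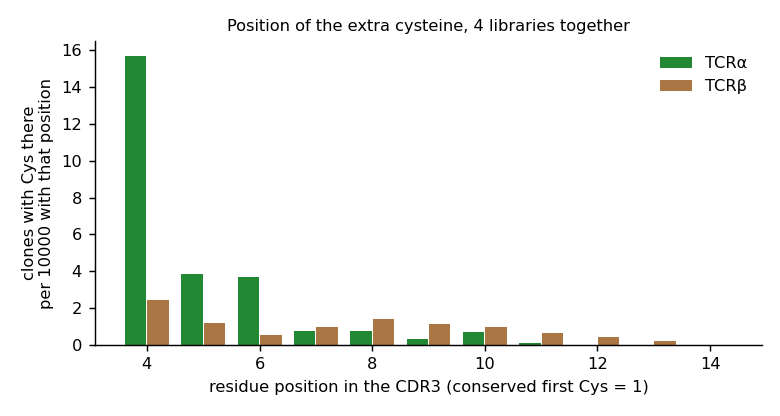
Clones with an extra cysteine at each CDR3 position per 10000 in-frame clones long enough to have it, all 4 libraries together. TCRα peaks at position 4 with 15.7 per 10000, and TCRβ has 2.41 at position 4 and 1.40 at position 8.

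By genotype, the share of in-frame TCRα clones with the cysteine at position 4 was 0.157% and 0.189% in WT against 0.132% and 0.150% in Tet2/3 DKO. The share with a later cysteine was 0.0953% and 0.0834% in WT against 0.104% and 0.117% in Tet2/3 DKO. Both splits were without overlap and ran in opposite directions (differences -0.0318 and 0.0211 percentage points, exact permutation p = 0.333 each). They rest on 51, 77, 52 and 68 clones at position 4 and 31, 34, 41 and 53 after it, and the counting intervals of the genotypes overlapped, at 0.119% to 0.206% in WT replicate 1 and 0.119% to 0.191% in Tet2/3 DKO replicate 2 for position 4. Without WT replicate 2 the position 4 difference was -0.0158 percentage points, and without WT replicate 1 it was -0.0479. When members were counted only from position 5 to the fourth from the end, the TCRα difference in reads accordingly turned to 0.0138 percentage points, with the Tet2/3 DKO libraries higher. In TCRβ the position 4 shares overlapped, at 0.0221% and 0.0240% in WT against 0.0151% and 0.0343% in Tet2/3 DKO.

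Central cysteines made up 52.4% and 49.0% of TCRβ members in WT against 62.2% and 53.0% in Tet2/3 DKO (difference 6.93 percentage points, exact permutation p = 0.333). With the narrower stretch the difference was -0.285 percentage points, and it was 2.33 without Tet2/3 DKO replicate 1 and 11.5 without Tet2/3 DKO replicate 2. The narrower stretch leaves out position 4 and the third from the end. The latter held 3 and 6 TCRβ cysteines in WT and 0 and 0 in Tet2/3 DKO, and their part in the difference was not tested. In TCRα the central shares were 34.1% and 28.8% in WT against 33.3% and 28.1% in Tet2/3 DKO and overlapped.

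Members of TCRα had mean CDR3 lengths of 13.0 and 13.2 residues in WT against 13.4 and 13.7 in Tet2/3 DKO, while other clones had 13.4 to 13.5. The Tet2/3 DKO members were longer by 0.461 residues without overlap (exact permutation p = 0.333). Other TCRα clones were also longer in both Tet2/3 DKO libraries, and relative to them the members differed by 0.392 residues (exact permutation p = 0.333). TCRβ members measured 13.5 to 13.9 residues in the 4 libraries and other TCRβ clones 13.6 to 13.7. Members had more junctional bases on average than other clones in each library. TCRα members had 2.76 and 2.82 in WT against 3.52 and 3.29 in Tet2/3 DKO, without overlap, and other TCRα clones 2.24 to 2.27. In TCRβ the values were 9.88 to 11.6 for members and 8.63 to 8.84 for other clones. Of the 12 values compared between genotypes per library, 4 did not overlap (33.3%), namely the TCRα share of reads, CDR3 length and share found in another library and the TCRβ central share. Over all 20 comparisons between genotypes, which also take in the differences within libraries, 7 did not overlap. Both TCRα splits by position and the TCRα junctional bases above come beside these. None of these can reach significance with 4 libraries.

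The cysteine codon itself was mostly made at the joint. Of the TCRα cysteines, 42.5% were read from inserted bases together with J bases, 26.8% from inserted bases alone, 58 of 407 lay wholly in the V part and 57 wholly in the J part. In TCRβ, 30.5% combined inserted and J bases, 19.6% were inserted alone, 10.6% combined inserted and D bases, 13.2% lay in the V part and 12.3% in the J part.

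Codons wholly in the V or J part were compared with the most common codon among the in-frame clones of that segment whose V or J part covers the position, which was not always held by most of them. In TCRα 104 members, and in TCRβ 74, had a codon other than the most common one, and 102 and 73 of them differed from it by 1 base. The most common codon encoded serine in 54, glycine in 26 and tyrosine in 19 of the TCRα cases, and serine in 40 and tyrosine in 31 of the TCRβ cases. Of these members 55.8% in TCRα and 58.1% in TCRβ had a single read, against 29.5% and 42.1% of members whose codon did not lie wholly in the V or J part. Whether amplification or sequencing errors had a part in them was not tested.

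TRAV23 and TRBV22 were the V or J segments in which most clones that cover a position of the stretch held a cysteine codon there, among positions covered by at least 3 clones. In TRAJ16 TGC was the most common codon at its position, in 6 of 15 clones. Both are listed as V segment pseudogenes in RefSeq (GRCm38.p6). TRBV22 (chr6:41212075-41212534, within the Tcrb locus at chr6:40891296-41558371) had TGT at position 5 in 44 of 45 clones that cover it. It gave 17 members among its 39 in-frame clones, 43.6%, and 16 of them had the cysteine at position 5. It made up 4.99% of TCRβ members, and its 70 reads were on average 5.86% of extra-cysteine reads, while TRBV22 held 0.00807% of in-frame TCRβ reads.

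TRAV23 (chr14:53977153-53977678, within the Tcra locus at chr14:52427967-54224198) had TGC at position 6 in 22 of 22 clones. All of its 6 in-frame clones were members. When read 1 base later, each of the 6 sequences gives Tyr-Phe-Cys-Ala, the usual end of a V segment, so that this codon overlaps the conserved cysteine of another frame. The TCRβ log2 ratio of cysteine codons was -3.32 without both segments.

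Among J segments, TRAJ43 (chr14:54174742-54174798) contributed most extra-cysteine TCRα reads. It had 31 members among 4164 in-frame clones (0.744%), with 8 and 9 in WT against 7 and 7 in Tet2/3 DKO. On average it held 9.91% of the extra-cysteine reads and 2.46% of all in-frame TCRα reads. Where the J part assigned to TRAJ43 starts with GC, as it does without trimming, a T before it can give the codon TGC and the protein end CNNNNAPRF, as in the examples above. This end was found in 26 of the 31 members. The base before a J part that starts there was T in 25 of 254 in-frame clones (9.84%) and in 5 of 37 nonproductive clones, a comparison that was chosen after the values were seen and was not tested. Clones whose J part was trimmed or was assigned further bases before GC were left out of it.

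TRAJ30, TRAJ31, TRAJ23 and TRAJ38 followed TRAJ43 by mean share of extra-cysteine reads, with 78, 83, 72 and 62 extra-cysteine reads over 4 libraries. As a share of own clones, among segments with at least 500 in-frame clones, TRAJ38 (chr14:54180574-54180635) was highest at 0.942% (12 of 1274), ahead of TRAJ35 at 0.821% (7 of 853) and TRAJ43. Without Tet2/3 DKO replicate 1 the TRAJ35 share was 0.477%. The order was not stable, since without WT replicate 1 TRAJ38, TRAJ35 and TRAJ43 had 0.686%, 0.734% and 0.701%. Without WT replicate 2 TRAJ35 (1.11%) lay above TRAJ38 (0.957%). TRAJ5 had 0 members of 741 clones, which allows a share of up to 0.405% (3 counts of the total), TRAJ4 1 of 2224 and TRAJ13 2 of 3809. The range over TRAJ segments with at least 500 in-frame clones was thus from 0 to 0.942%.

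TRAV7-5 (102 reads, 35 members), TRAV6-6 (96 reads, 23 members), TRAV7-2 (93 reads, 34 members), TRAV11 (80 reads, 16 members) and TRAV8-1 (62 reads, 12 members) held the most extra-cysteine TCRα reads. TRAV7-5 had 5 and 3 members in WT against 14 and 13 in Tet2/3 DKO, and its reads, 13 and 11 against 34 and 44, did not pass the test (edgeR adjusted p = 0.995). By share of own clones, among segments with at least 500 in-frame clones, TRAV11 was highest, with 16 members of 1449 (1.10%), followed by TRAV12-2 with 4 of 684 and TRAV4-3 with 9 of 1582. TRAV12-2 had 3 of its 4 members in Tet2/3 DKO replicate 1 and 1 of 500 clones without that library. TRAV12D-3, TRAV16D-DV11 and TRAV6-1 had 0 members among 1386, 801 and 835 clones, which allows shares of up to 0.216%, 0.375% and 0.359%. Many TRAV segments have near-identical copies, and clones with several listed V segments held 46.2% to 49.3% of TCRα reads, so that values for single TRAV segments are uncertain.

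TRAV11 is the segment of the invariant TCRα chain of iNKT cells, which pairs it with TRAJ18. Of the 407 TCRα members 0, which allows a share of up to 0.737%, joined a TRAV11 family segment to TRAJ18 or TRAV1 to TRAJ33, the chain of MAIT cells. The 16 TRAV11 members had 13 distinct CDR3s, and only 1 had its cysteine at position 4.

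In TCRβ, TRBJ2-7 (chr6:41543810-41543856) led with 319 of the extra-cysteine reads and 111 members of 79165 clones (0.140%, the highest among the 12 TRBJ segments). On average it held 32.6% of extra-cysteine reads and 21.3% of in-frame reads. In 58 of its members the CDR3 ended in CEQYF, where the cysteine takes the place of the tyrosine that TRBJ2-7 usually gives, as in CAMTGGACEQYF of Tet2/3 DKO replicate 2 (12 reads). Across in-frame TRBJ2-7 clones that end in EQYF, the residue before it was tyrosine in 68.5% and cysteine in 0.0753%. TRBJ2-5, TRBJ2-4, TRBJ2-1 and TRBJ2-3 followed by reads, with 177, 118, 110 and 57. TRBJ2-1 and TRBJ2-4 came next by share of own clones, at 0.104% and 0.103% of their clones, and TRBJ1-1, TRBJ1-6 and TRBJ2-2 were lowest at 0.0305%, 0.0522% and 0.0559%.

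TRBV20 (chr6:41188273-41188977), with 130 reads, TRBV13-3 with 116, TRBV5 with 111, TRBV31 with 91 and TRBV13-1 with 73 held the most extra-cysteine TCRβ reads. As a share of their own clones, among segments with at least 500 in-frame clones, TRBV30 (4 of 1543, 0.259%), TRBV17 (21 of 8313, 0.253%) and TRBV12-2 (13 of 5520, 0.236%) were highest. Without Tet2/3 DKO replicate 1 the TRBV30 share was 0.168%, below that of TRBV17 (0.292%), and without Tet2/3 DKO replicate 2 the TRBV12-2 share was 0.136%. TRBV14, TRBV16 and TRBV23 were lowest, at 0.0224%, 0.0229% and 0.0310%.

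Reads per segment, split into extra-cysteine and other in-frame reads, were compared between genotypes with the edgeR quasi-likelihood test. No extra-cysteine feature passed an adjusted p of 0.05 among 35 TRAV, 35 TRAJ, 17 TRBV and 11 TRBJ features, and the share called over both classes was 0 in each of the 4 fits (133, 78, 41 and 23 features). At an unadjusted p below 0.05 there were 3, 2, 1 and 1 extra-cysteine features with edgeR, and 1, 1, 0 and 1 with DESeq2, which also called none after adjustment. Over both classes 3.76%, 5.13%, 7.32% and 8.70% of the features had such an unadjusted p with edgeR. Without Tet2/3 DKO replicate 1 the fits called 11, 1, 7 and 0 features, of which 0 were extra-cysteine features.

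The smallest p belonged to TRBJ2-2, with 13 and 30 extra-cysteine reads in WT against 2 and 4 in Tet2/3 DKO (log2 fold change -3.02 ± 0.72 SE, edgeR adjusted p = 0.117). It had 4 and 2 such clones in WT against 2 and 4 in Tet2/3 DKO, and 21 of the 30 reads of WT replicate 2 came from the clone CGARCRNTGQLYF shown above. TRAV19 had 0 extra-cysteine reads in both WT libraries and 13 and 17 in Tet2/3 DKO (edgeR adjusted p = 0.982). TRAJ12 had 2 and 2 reads in WT against 12 and 25 in Tet2/3 DKO (edgeR adjusted p = 0.790). TRBV3 had 1 and 1 against 14 and 6 (edgeR adjusted p = 0.514). The remaining extra-cysteine features with an unadjusted p below 0.05 were higher in WT. TRAV8D-1 had 5 and 12 reads in WT against 0 and 0 in Tet2/3 DKO (edgeR adjusted p = 0.982). TRAV6D-7 had 8 and 6 against 0 and 0 (edgeR adjusted p = 0.982), and TRAJ44 15 and 5 against 0 and 1 (edgeR adjusted p = 0.790).

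Extra-cysteine clones were small. TCRα members had 3.00 and 3.28 reads per clone in WT against 2.95 and 3.40 in Tet2/3 DKO, where other TCRα clones had 4.59, 4.62, 4.28 and 5.61. TCRβ members had 2.40 and 3.61 in WT against 2.66 and 3.04 in Tet2/3 DKO, and other TCRβ clones 4.58, 4.58, 4.28 and 5.57. Members were smaller in each library and both chains, by 0.55 and 0.63 on the log2 scale in WT and Tet2/3 DKO for TCRα and by 0.64 and 0.78 for TCRβ. The genotypes overlapped in both (exact permutation p = 0.667 and p = 1).

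Among the 20 residues, clones with cysteine had the fewest reads and the highest share of clones with a single read in both chains. This share was 31.2% to 43.8% of TCRα and 38.5% to 52.4% of TCRβ members, against 25.5% to 26.5% of other clones. The deposited CDR3 quality score, taken here as the lowest base quality although the sources do not define it, was also lower in members, at a mean of 47.1 to 49.8 against 51.0 to 51.3 in TCRα and 44.7 to 47.5 against 51.2 to 51.4 in TCRβ. Its part in the clone sizes was not tested.

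**Figure D5:**
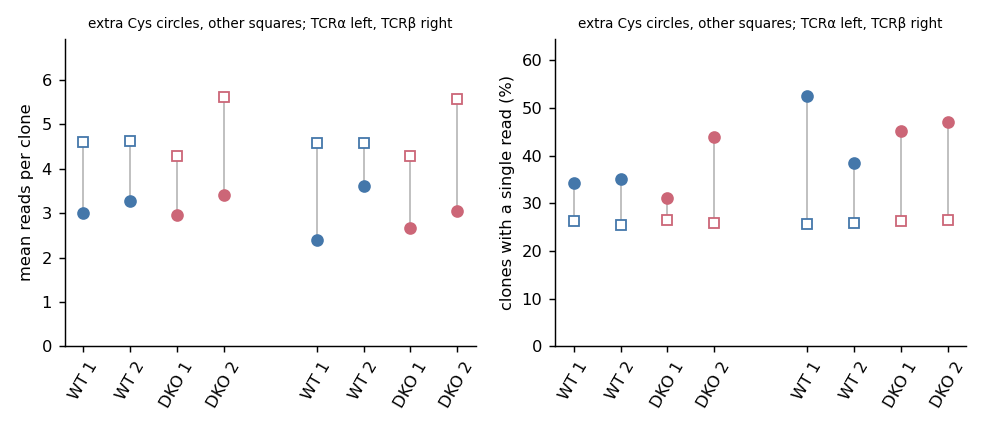
Mean reads per clone (left) and clones with a single read in percent (right) for extra-cysteine clones (circles) and other in-frame clones (squares) of each library, TCRα to the left and TCRβ to the right in each panel. The circles lie at 2.40 to 3.61 reads per clone, below the squares at 4.28 to 5.61, in each library.

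A larger neighbour, meaning a clone with the same V and J segment, a CDR3 1 base away and at least 10 times the reads, was found for 11.1% and 4.17% of TCRβ members in WT and for 4.88% and 4 of 100 in Tet2/3 DKO. For other TCRβ clones the share was 0.991% to 1.47%. The mean difference was 4.90 percentage points (exact sign-flip permutation p = 0.125, higher in 4 of 4 libraries), and it was 3.17 without WT replicate 1 and -0.392 among clones with at least 2 reads. In TCRα the share was 3.66% and 3.60% of members in WT against 1.08% and 1.65% in Tet2/3 DKO, and 2.15% to 2.76% of other clones. The member shares rest on 3, 4, 1 and 2 clones.

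Extra-cysteine CDR3s were rarely shared between libraries. With a CDR3 defined by V, J and protein sequence, 5.19% and 4 of 100 of the TCRα member CDR3s of the WT libraries and 3.66% and 2.91% of those of the Tet2/3 DKO libraries were found in another library, against 34.2% to 37.4% of other CDR3s. In TCRβ the shares were 0 of 61 CDR3s (up to 4.92%) and 1.14% for the WT members, 1.33% and 0 of 90 (up to 3.33%) for the Tet2/3 DKO members, and 25.2% to 26.9% for others. The differences averaged -31.7 percentage points in TCRα and -25.2 in TCRβ, with the same sign in 4 of 4 libraries (exact sign-flip permutation p = 0.125 each). The TCRα member shares rest on 4, 4, 3 and 3 CDR3s. Between genotypes they differed by -1.31 percentage points, by -0.714 without WT replicate 1 and by -1.91 without WT replicate 2. Members were also smaller clones and had more junctional bases on average than other clones. The part of clone size and of junctional bases in their sharing was not tested.

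By protein sequence alone, 21 of 320 distinct TCRα member CDR3s and 1 of 313 TCRβ ones were found in more than 1 library. Only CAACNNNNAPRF, a TRAJ43 chain, was present in all 4 libraries, with 12 and 8 reads in WT against 7 and 7 in Tet2/3 DKO. It was made with 6 listed V segments and 5 nucleotide sequences over 10 clones. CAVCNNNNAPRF (0, 11, 9 and 12 reads) and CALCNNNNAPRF (5, 3, 3 and 0 reads) were found in 3 libraries and also use TRAJ43. The shared TCRβ CDR3 was the TRBV5 and TRBJ2-5 chain shown above for Tet2/3 DKO replicate 1, with 8 reads in WT replicate 2 and 15 in Tet2/3 DKO replicate 1. The nucleotide sequences differed between these libraries.

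The residues next to the cysteine differed between the chains. In TCRα the residue before it was alanine in 25.8% and leucine in 57 of 407 members, and the one after it was asparagine in 22.6% and serine in 65 of 407. In TCRβ glycine (28.7%) and serine (27.9%) came before it and glutamate (18.8%) and arginine (12.6%) after it. The codon was TGC in 52.8% of TCRα and 47.5% of TCRβ members and TGT in the others.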

How the data were processed

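TCR SMART-seq libraries of splenic CD4 T cells were used, 2 WT and 2 Tet2/3 DKO. Libraries of thymocytes and of cells after transfer were not used here. The authors ran fastp 0.21.0 for trimming and MiXCR 4.7.0 for clone assembly. Bcl2fastq 2.20.0 and mm10 are named in the submitters' processing notes.

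Per chain and library, the authors deposited each clone's read count, the fraction of the chain's reads that it holds, and a quality score for its CDR3, taken as the lowest base quality, which the sources do not define. The deposited fraction served only to check the counts. A clone is a deposited row, V and J are the first of the listed segments, and bases were assigned to V, D, J or inserted parts by the deposited reference points. Segment positions are from RefSeq, GRCm38.p6, in which 181 of 181 segments matched. Rows without a covered CDR3 were left out.

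Single values were compared by exact two-sided permutation tests over 6 label assignments, and differences within libraries by exact sign-flip permutation tests. Segment features with at least 10 reads were tested with edgeR 4.0.16 on counts, scaled by all in-frame reads, with Benjamini-Hochberg adjustment at 0.05, and with DESeq2 1.42.0 as an alternative. The segment fit was tested on simulated data with a fixed dispersion that was not estimated from these libraries. That simulation therefore does not show what the fit could detect among extra-cysteine features.

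The members and lists were chosen with earlier results of these data known. The segments named are, for each chain, the 5 V and 5 J segments with the largest mean share of extra-cysteine reads, the 3 highest and 3 lowest by share of their own clones (at least 500 in-frame clones), and those whose own sequence holds the codon. The clones named are the most abundant member of each chain and library and CDR3s found in all 4 libraries. TRAV19, TRAV8D-1, TRAV6D-7, TRAJ12, TRAJ44, TRBV3 and TRBJ2-2 were named for their unadjusted p-values below 0.05. The CEQYF end, the TRAV11 chains and the CDR3s shared by 2 or 3 libraries were named for their pattern. Both choices were made after the values were seen. The TRAV7-5 counts by library were also singled out after the values were seen. Scripts used Python 3.11.15, numpy 2.4.6, pandas 2.3.3 and scipy 1.17.1.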

Additional observations from a re-analysis of the deposited data

Results flagged for a closer look

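The share of TCRα clones that had a larger neighbour 1 base away was higher in extra-cysteine clones than in other clones in both WT libraries, by 1.50 and 1.31 percentage points, and lower in both Tet2/3 DKO libraries, by -1.14 and -1.11 percentage points. These shares rest on 3, 4, 1 and 2 extra-cysteine clones in WT replicates 1 and 2 and Tet2/3 DKO replicates 1 and 2. The difference between the genotypes was -2.53 percentage points. The difference was not tested beyond the exact permutation test, whose p of 0.333 is the smallest that 2 libraries per genotype allow.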

How the results depend on the processing

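The 24 results were recomputed under alternative settings, which gave 236 values. Of these 31 reversed their direction. Among the others, 44 are counts of 0 from the segment fits and 12 are values with the block that equal the reported ones by construction, so that neither bears on stability. Beside the segment fits, 6 results had no reversed value. The 4 segment fits called 0 extra-cysteine features under each of 11 alternatives, although other TRAV features were called without the filter on reads (1) and with the block (1). The higher rate of cysteine codons in nonproductive clones kept its direction, between -1.72 and -1.10 (log2) in TCRα and between -4.00 and -3.14 in TCRβ, and so did the lower share found in another library of members than of other clones.

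Counting from position 5 to the fourth from the end gave differences of 0.0138 (TCRα share of reads), 0.0211 (TCRα share of clones), 0.032 (TCRα log2 reads per clone), -0.285 (TCRβ central share) and -0.0269 (TCRβ share found in another library), and 0 in place of -1.31 for the TCRα share found in another library. Clones with at least 2 reads gave -0.174 residues for TCRβ length and -0.527 and -0.392 for the TCRα and TCRβ neighbour shares. Merged clones gave 1.47 for the TCRα central share. Without clones 1 base from a larger clone it was 1.13, and TCRβ length -0.0165. Drawing down gave -9.01e-05 for the TCRβ share of clones and -0.0213 for TCRβ length. Leaving out codons wholly in the V or J part gave -0.000556 for the TCRβ share of clones. The cause was not tested. Leaving out these codons was chosen after seeing the data. For the cysteine codon rates, so were codons wholly of junctional bases, leaving out clones 1 base from a larger clone, and weighting by reads. Leaving out TRAV23 and TRBV22 was also chosen then. Clones with at least 2 reads, merged clones and leaving out 1 library were planned for these rates.

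Leaving out 1 library reversed 11 results. The ranges over the 4 libraries were -0.0268 to 0.00539 for the TCRα share of clones (turned without Tet2/3 DKO replicate 1), -3.43 to 1.89 for the TCRα central share (WT replicate 1, Tet2/3 DKO replicate 2), -0.16 to 0.016 for TCRα log2 reads per clone (Tet2/3 DKO replicate 2), -0.198 to 0.000766 for members less others in TCRα length (WT replicate 1), and -0.312 to 0.569 for the TCRα neighbour share (either WT library). In TCRβ they were -0.0241 to 0.0122 for the share of reads (WT replicate 2), -0.00544 to 0.0129 for the share of clones (WT replicate 1, Tet2/3 DKO replicate 2), -0.44 to 0.15 for log2 reads per clone (WT replicate 2), -0.196 to 0.196 for length (WT replicate 2, Tet2/3 DKO replicate 2), -0.568 to 0.765 for the share found in another library (WT replicate 1, Tet2/3 DKO replicate 1), and -0.111 to 0.0535 for members less others in length (WT replicate 2, Tet2/3 DKO replicate 1).

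With the replicate number as a block the TCRα share of reads differed by -0.0167, as it must with 2 balanced pairs, and no call of an extra-cysteine feature changed. Deviations of same-numbered libraries correlated at 0.0160 over 275 segment features. The labels do not say what a number marks, and the libraries were taken as unpaired. Depth limits all of these values, since members have 1 to 31 reads and 63 to 121 clones per library and chain.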
